A study of Mus musculus with 18 samples.

Results

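The collapsin response mediator proteins (CRMPs) are encoded by 5 genes, Crmp1, Dpysl2, Dpysl3, Dpysl4 and Dpysl5, and their transcripts were followed in mouse substantia nigra. The family was taken up because Dpysl2 stood among the genes higher in AAV-SIRT3 than in AAV-GFP tissue. That contrast is therefore given below as values only, for all 5 genes. The members were found by gene symbol, and 5 of the 55270 listed genes carried these symbols. All 5 passed the filter on low values, which was a normalised value of at least 10 in at least 6 libraries. Each had at least 1400 reads in every library, so none passed through a single group.

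CRMPs are cytosolic phosphoproteins of neurons that resemble the enzyme dihydropyrimidinase but do not catalyse its reaction. Dpysl2 protein, also called CRMP2, binds tubulin dimers and promotes microtubule assembly in growing axons. The repulsive guidance cue semaphorin 3A, acting through neuropilin and plexin A receptors, leads to phosphorylation of CRMPs by Cdk5 and Gsk3 kinases, and phosphorylated CRMP2 binds tubulin less well. In the adult brain CRMP2 is also found in oligodendrocytes.

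Poly-A RNA was sequenced from 18 mice, 6 in each of 3 groups, all 3 months old by the labels. Intact mice are labelled WT with no treatment named. About a month before, the other 2 groups had been given an adeno-associated virus (AAV), which overexpressed GFP, a fluorescent marker protein, in AAV-GFP mice or the mitochondrial deacetylase SIRT3 in AAV-SIRT3 mice. The labels used here name no promoter, strain or sex, and no injected control without virus is among the groups, so injection, virus and GFP cannot be told apart in AAV-GFP against intact.

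The libraries held between 47182529 and 64728587 gene-assigned reads. Sirt3 itself lay between 1733 and 1920 normalised reads in intact, between 1684 and 1936 with AAV-GFP and between 1801 and 2041 with AAV-SIRT3, ranges that overlap, and it did not pass over all genes in AAV-SIRT3 against AAV-GFP (limma, adjusted p = 0.183). The sequence of the SIRT3 transgene is not given in the sources used here, and whether its reads were counted under Sirt3 was not tested. The 9 dopaminergic neuron markers were all detected in every group, and Th, the rate-limiting enzyme of dopamine synthesis, lay between 3673 and 6637 normalised reads. Of 8 thalamic neuron markers 5 were higher in AAV-SIRT3 than in intact tissue by limma and 0 lower, with a summed level from 49402 to 95213 normalised reads in intact, from 78776 to 91402 with AAV-GFP and from 74193 to 98313 with AAV-SIRT3. Choroid plexus markers summed to 47020 normalised reads in intact replicate 2 and to 41456 in AAV-GFP replicate 5, against at most 5340 in each of the other libraries. Log2 differences fell with transcript length across 18824 genes in AAV-SIRT3 against intact, with a Spearman correlation of -0.273.

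Because the 5 genes are paralogs, the share of sequence that could attract each other's reads was measured first on their coding sequences in GENCODE M21 (GRCm38). Dpysl2 matched Crmp1 at 74.3%, Dpysl3 at 73.8%, Dpysl4 at 73.3% and Dpysl5 at 60.6% of aligned bases. The longest run of identical bases was 26 with Crmp1, 20 with Dpysl3, 29 with Dpysl4 and 14 with Dpysl5, all shorter than the 100-base reads. Dpysl5 was the most divergent member, at 58.8% to 61.6% against each of the others. The stretch below holds the longest run that Dpysl2 shares with Dpysl4, in capitals, within positions 856 to 908 of the coding sequence of both, counted from the start codon. It is shown because no other member shares a longer identical stretch with Dpysl2.
Dpysl2: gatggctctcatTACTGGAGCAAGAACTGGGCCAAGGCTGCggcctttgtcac
Dpysl4: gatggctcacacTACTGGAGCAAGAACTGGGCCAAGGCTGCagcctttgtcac
The same place in Crmp1, shown from position 856 to 905, carries the longest run shared with Dpysl2, again in capitals.
Crmp1: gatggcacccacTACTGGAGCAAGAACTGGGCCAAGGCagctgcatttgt
The longest run shared with Dpysl5 lies elsewhere, at positions 256 to 269 of its own coding sequence and 277 to 290 of that of Dpysl2, and is shown within positions 244 to 281 and 265 to 302.
Dpysl2: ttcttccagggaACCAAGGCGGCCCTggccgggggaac
Dpysl5: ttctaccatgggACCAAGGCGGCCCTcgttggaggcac
These sequences show that mismatches flank each shared run within a few bases. Untranslated regions were not compared.

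Dpysl2 is a minus-strand gene of chromosome 14 (66802864 to 66868688) in GENCODE M21, which lists 1 transcript of 4520 bases. RefSeq on the same build extends the gene to 66911041, and which of these models the counting used is not given in the sources used here. Crmp1 (37241940 to 37292133) and Dpysl5 (30711564 to 30799375) both lie on chromosome 5, Dpysl4 lies on chromosome 7 from 139086001 to 139102704, and Dpysl3 lies on chromosome 18. Evc overlaps Crmp1 on the opposite strand and Gm42764 lies in an intron of Dpysl5. Neither shares an exonic base with the member it overlaps.

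Dpysl2 was the member with the highest normalised read number in every library. Its values ran from 9080 to 11653 with a median of 10640 in intact libraries, from 9951 to 12544 with a median of 11378 with AAV-GFP and from 12482 to 17005 with a median of 14542 with AAV-SIRT3. All 6 AAV-SIRT3 libraries lay above the highest intact library, and 5 of the 6 lay above the highest AAV-GFP library, which was replicate 2. AAV-SIRT3 replicate 4 was the lowest of its group and replicate 3 the highest.

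**Figure D1:**
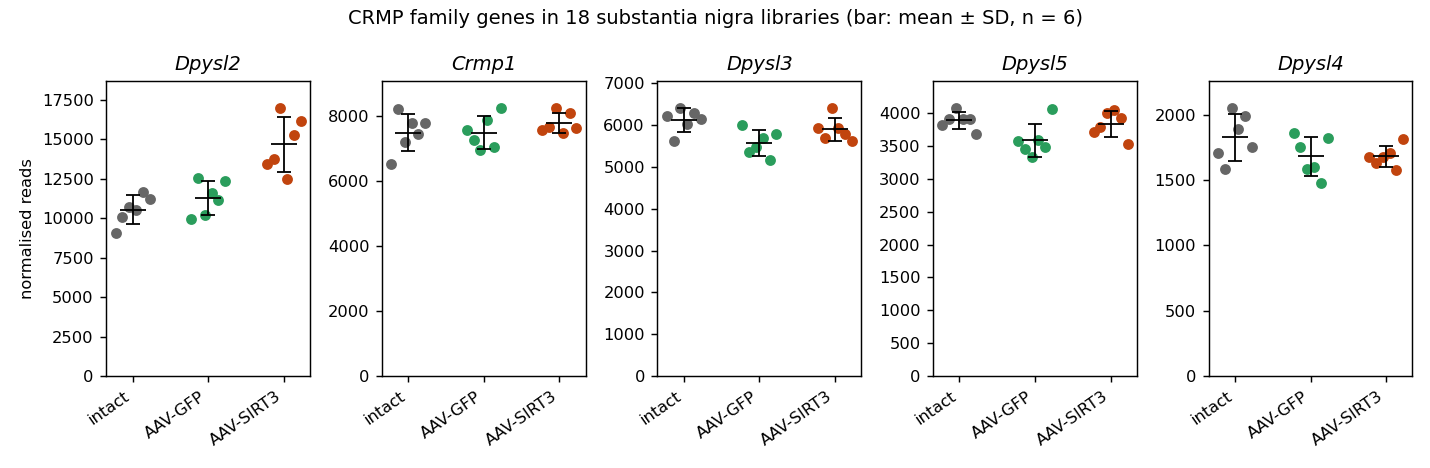
Normalised reads of each CRMP gene (vertical axis, starting at 0) in the 6 intact, 6 AAV-GFP and 6 AAV-SIRT3 libraries, with points for libraries and bars for mean ± SD. For Dpysl2 the AAV-SIRT3 libraries sit between 12482 and 17005, all above the intact ones, while the groups of the other 4 genes overlap.

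Dpysl2 was 38.95% higher in AAV-SIRT3 than in intact tissue. The means were 14702 ± 1741 and 10552 ± 899 normalised reads (SD, n = 6 each), and the log2 difference was 0.47 (SE 0.0743, 95% interval 0.32 to 0.63, limma adjusted p = 0.000601). It was the single member of 5 that passed, where 21.7% of all genes tested passed in this comparison, so the count of 1 is near the background. The groups did not overlap in Dpysl2, as for 9.33% of the genes tested, and its difference was larger in size than that of 89.0% of them. The call held in all 26 alternatives, with log2 differences from 0.43 to 0.55 and adjusted p from 1.06e-07 to 0.00979. Without intact replicate 2, a library rich in choroid plexus markers, it was 0.46 (limma adjusted p = 0.00151). This comparison shares the AAV-SIRT3 libraries with the one that led to the choice of Dpysl2 and is not independent of it.

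In AAV-SIRT3 against AAV-GFP, the contrast in which Dpysl2 was chosen, the means were 14702 ± 1741 and 11297 ± 1077 normalised reads (SD, n = 6 each). The log2 difference of 0.38 (SE 0.0743) corresponds to 29.9% and is a description. In that contrast 0.113% of genes tested were called, 0.036% higher and 0.0771% lower, and 0.751% had groups that did not overlap. AAV-SIRT3 was higher in 35 of the 36 pairs of libraries, and the difference lay between 0.33 and 0.42 when each of the 12 libraries was left out. It was 0.41 without AAV-GFP replicate 2 and 0.38 without AAV-GFP replicate 5, also rich in choroid plexus markers. Since Dpysl2 was chosen in this contrast, the pairs and left-out libraries describe the difference and lend it no support. AAV-GFP against intact gave 0.10 for Dpysl2 (SE 0.0743, 95% interval -0.06 to 0.25, limma adjusted p = 0.505), with 24 of 36 pairs higher in AAV-GFP.

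Marker lists of neurons and oligodendrocytes were read beside Dpysl2. The 8 mature oligodendrocyte markers had a median log2 difference of 0.10 in AAV-SIRT3 against intact, with 2 higher (Mal and Mobp) and 0 lower, and summed levels from 832888 to 1016460 normalised reads in intact and from 850826 to 976017 with AAV-SIRT3. The 8 pan-neuronal markers had a median of 0.09, with Thy1 higher and 0 lower, and summed levels from 310127 to 375533 in intact and from 333310 to 376581 with AAV-SIRT3. With the oligodendrocyte, pan-neuronal or thalamic marker score of each library as a covariate, Dpysl2 stood at 0.50, 0.48 and 0.44 (limma adjusted p = 0.0019, 0.00172 and 0.00979). Within groups Dpysl2 correlated with these scores at only r = -0.17, -0.02 and 0.13, so the covariates could move its value little. The part of these cell types in the Dpysl2 difference was not tested. In AAV-SIRT3 against AAV-GFP, the 9 dopaminergic markers had a median of 0.24, the 6 GABAergic ones 0.24 and the 5 endothelial ones -0.37, with 0 called in each list, and their part in Dpysl2 was not tested. Within groups Dpysl2 correlated with the dopaminergic score at r = -0.03, the GABAergic at -0.01 and the endothelial at -0.31 (18 libraries, a description). Its correlations largest in size were 0.51 with the immature neuron score and -0.435 with the oligodendrocyte precursor score. In bulk tissue more cells of a type and more RNA per cell cannot be told apart.

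**Figure D2:**
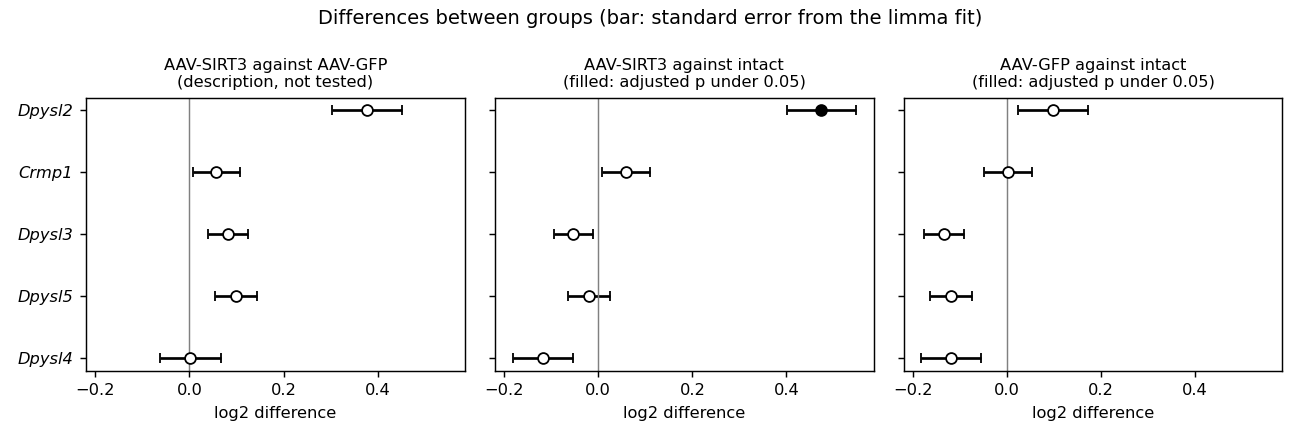
Log2 differences of the 5 CRMP genes in the 3 comparisons (horizontal axis), with bars for the standard error from the limma fit and filled points for an adjusted p under 0.05. Dpysl2 in AAV-SIRT3 against intact, at 0.47, is the single filled point. The left panel was not tested.

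Crmp1, which takes part in semaphorin 3A signalling, had overlapping values in the 3 groups. Its values ran from 6543 to 8207 with a median of 7614 in intact, from 6966 to 8250 with a median of 7419 with AAV-GFP and from 7491 to 8255 with a median of 7653 with AAV-SIRT3. The highest values of the 3 groups lay close together, and the lowest AAV-SIRT3 library lay above the lowest of both other groups. The log2 difference was 0.06 in AAV-SIRT3 against intact (95% interval -0.05 to 0.16, limma adjusted p = 0.432) and 0.002 in AAV-GFP against intact (95% interval -0.10 to 0.11, limma adjusted p = 0.99). The first value turned to -0.05 with the thalamic score as covariate, and within groups Crmp1 correlated with that score (r = 0.72 over 18 libraries, a description). In AAV-SIRT3 against AAV-GFP the value was 0.06 (SE 0.0503).

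Dpysl3, whose protein CRMP4 binds actin as well as tubulin in growth cones, had its lowest values in AAV-GFP tissue. It ran from 5610 to 6408 with a median of 6182 in intact, from 5162 to 6002 with a median of 5577 with AAV-GFP and from 5628 to 6409 with a median of 5860 with AAV-SIRT3. The AAV-SIRT3 range overlapped with those of both other groups, and 3 AAV-GFP libraries lay below the lowest intact library. AAV-GFP against intact gave -0.13 (SE 0.0421, 95% interval -0.22 to -0.05), which did not pass over all genes (limma, adjusted p = 0.0886). It passed without intact replicate 2 at -0.16 (limma adjusted p = 0.0466), without AAV-GFP replicate 1 at -0.16 (limma adjusted p = 0.0444) and with DESeq2 at -0.13 (adjusted p = 0.0444). Without AAV-GFP replicate 5, rich in choroid plexus markers, it was -0.11 (limma adjusted p = 0.167). Over its 26 alternatives the adjusted p ran from 0.0444 to 0.445. The difference of AAV-SIRT3 from intact was -0.05 (limma adjusted p = 0.394), and that from AAV-GFP was 0.08 (SE 0.0421).

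Dpysl5, whose protein CRMP5 is the most divergent of the family, had a similar order of groups. Its values ran from 3682 to 4078 with a median of 3910 in intact, from 3338 to 4055 with a median of 3532 with AAV-GFP and from 3529 to 4048 with a median of 3857 with AAV-SIRT3. Of the AAV-GFP libraries, 5 lay below the lowest intact library and replicate 6, at 4055, lay just under the highest intact library. AAV-GFP against intact gave -0.12 (SE 0.0446, 95% interval -0.21 to -0.03, limma adjusted p = 0.148), and over 26 alternatives the adjusted p ran from 0.0525 to 0.381. For AAV-SIRT3 against intact it was -0.02 (limma adjusted p = 0.777), and against AAV-GFP 0.10 (SE 0.0446).

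Dpysl4, whose protein is CRMP3, had the fewest reads of the family. It ran from 1581 to 2051 with a median of 1820 in intact, from 1479 to 1856 with a median of 1673 with AAV-GFP and from 1576 to 1814 with a median of 1676 with AAV-SIRT3. The groups overlapped. Both AAV groups gave a log2 difference of -0.12 against intact (limma adjusted p = 0.201 for AAV-SIRT3 and 0.321 for AAV-GFP), and AAV-SIRT3 against AAV-GFP gave 0.002 (SE 0.0642).

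In AAV-GFP tissue, where Dpysl3 and Dpysl5 were lower without passing by limma, the neuron marker lists had medians of both signs and few calls. The 8 pan-neuronal markers had a median log2 difference of 0.03 in AAV-GFP against intact, with 0 higher and 0 lower. The 8 thalamic ones had a median of 0.51, with 1 higher and 0 lower. Against intact the 9 dopaminergic markers had a median of -0.32, with Slc6a3, the dopamine transporter, lower and 0 higher, and summed levels from 40338 to 55216 normalised reads in intact and from 35606 to 46358 in AAV-GFP libraries. The 6 GABAergic markers had a median of -0.14 with 0 called, and sums from 55931 to 65610.5 in intact and from 48850.5 to 59922 in AAV-GFP libraries. Within groups, as a description over 18 libraries, Dpysl5 correlated with the GABAergic score at r = 0.66 and the dopaminergic score at 0.01. Dpysl3 correlated with the choroid plexus score at -0.72, the dopaminergic score at 0.39 and the GABAergic score at 0.12. The choroid plexus score was highest in intact replicate 2 and AAV-GFP replicate 5, also the lowest Dpysl3 libraries of their groups. Dpysl4, likewise lowest in these libraries, correlated with that score at -0.66. The part of these cells in the 3 genes was not tested.

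In AAV-GFP against intact 0 of the 5 members passed by limma, where 1.84% of genes tested did. None of the 5 had groups that did not overlap, as 1.86% of genes tested had. At an unadjusted p under 0.05 there were 2, Dpysl3 and Dpysl5, both lower, against 3707 of all 19443 genes tested. edgeR on recovered reads called 0 and DESeq2 called 1, which was Dpysl3, against 362 and 1000 of all genes. Both comparisons with intact use the same 6 intact libraries.

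Within each library Dpysl2 was set against its paralogs, which removes differences in depth. The ratio of Dpysl2 to Crmp1 reads ran from 1.23 to 1.56 in intact, from 1.32 to 1.72 with AAV-GFP and from 1.67 to 2.12 with AAV-SIRT3. The ratio to Dpysl3 was 1.73 ± 0.144 in intact, 2.03 ± 0.242 with AAV-GFP and 2.49 ± 0.282 with AAV-SIRT3. The ratio to Dpysl4 was 5.80 ± 0.508, 6.76 ± 0.791 and 8.76 ± 1.05, and that to Dpysl5 was 2.72 ± 0.253, 3.16 ± 0.282 and 3.85 ± 0.526, in the same order (SD, n = 6 each). For each of the 4 paralogs, the lowest AAV-SIRT3 ratio lay above the highest intact ratio, by little for Dpysl5 (3.08 against 3.04). The 4 ratios share the Dpysl2 values, which alone did not overlap between these groups, as for 9.33% of genes tested. They do not count as separate results. The ratios were not tested, since the numerator is the gene the family was chosen for.

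**Figure D3:**
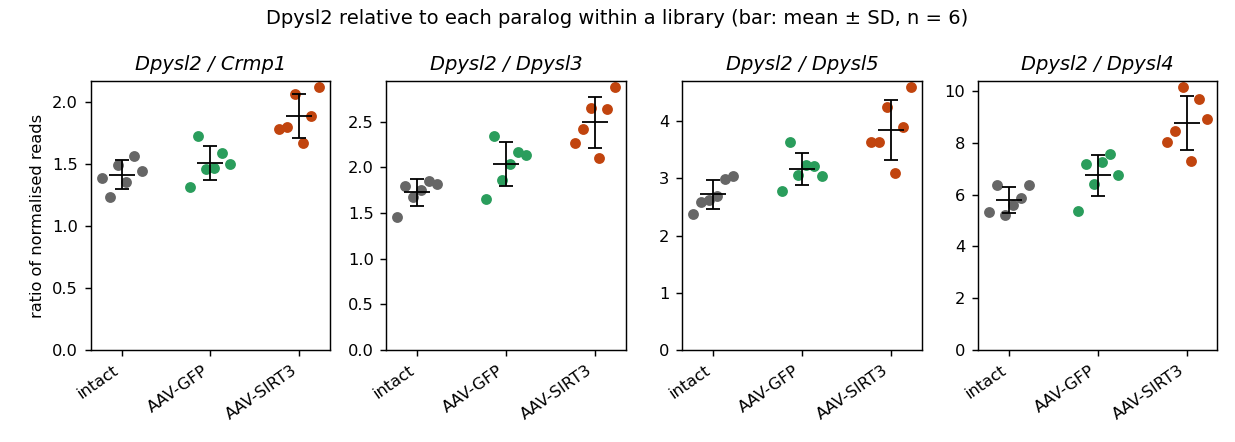
Ratio of Dpysl2 to each paralog in normalised reads within a library (vertical axis, starting at 0), with points for libraries and bars for mean ± SD. The AAV-SIRT3 ratios lie above all intact ratios in each panel, and AAV-GFP lies between them with overlap. All panels share the same Dpysl2 values.

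The sum of the 4 genes other than Dpysl2 was 19324 ± 537 normalised reads in intact, 18337 ± 1065 with AAV-GFP and 19200 ± 628 with AAV-SIRT3 (SD, n = 6 each). The sum over all 5 was 29876 ± 1376, 29634 ± 1700 and 33902 ± 2120. The AAV-SIRT3 sums over 5 genes began at 31653, above the highest intact sum of 31299 and below the highest AAV-GFP sum of 32254. The mean without Dpysl2 differed less between intact and AAV-SIRT3 than the SD of either group.

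Levels between genes were compared per kilobase of the longest coding transcript in GENCODE M21. In intact tissue Crmp1 stood at 2455 ± 189 and Dpysl2 at 2334 ± 199 normalised reads per kilobase, which do not differ beyond their spread. Dpysl3 followed at 1117 ± 51.0, Dpysl5 at 749 ± 25.1 and Dpysl4 at 515 ± 50.6 (SD, n = 6 each), and the ranges of these 3 did not overlap with one another. In AAV-SIRT3 tissue Dpysl2 came first at 3253 ± 385 and its lowest library, 2761, lay above the highest Crmp1 library, 2706. Dpysl2 made up 32.5 ± 1.39% of the family per kilobase in intact, 34.99 ± 2.19% with AAV-GFP and 40.1 ± 2.49% with AAV-SIRT3. The order of the leading pair rests on the length used: per kilobase of all annotated exons, retained introns included, Crmp1 stood at 1063 in intact and Dpysl2 at 2334. Per kilobase of coding transcript, Dpysl2 in intact tissue exceeded 92.4% of the tested genes with a length, and Dpysl4 exceeded 65.9%.

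**Figure D4:**
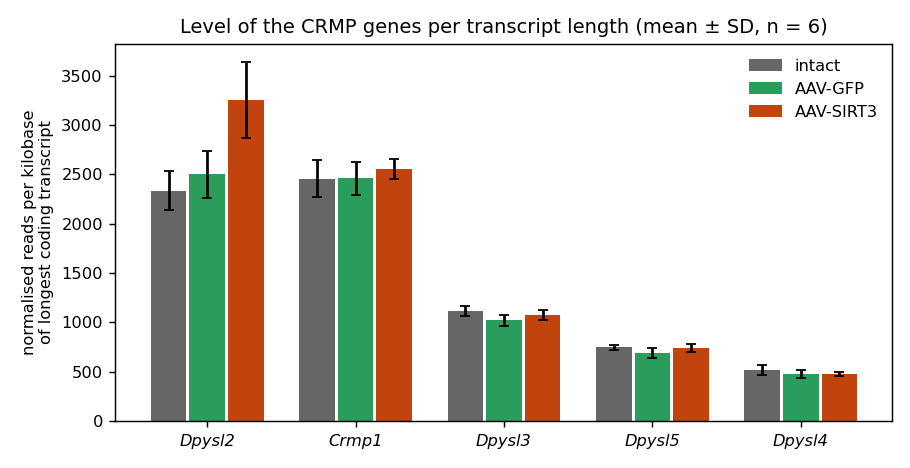
Normalised reads per kilobase of the longest coding transcript (vertical axis, starting at 0) for each CRMP gene and group, with bars for the mean and whiskers for the SD over 6 libraries. Crmp1 and Dpysl2 are level in intact tissue at 2455 and 2334, and Dpysl2 stands at 3253 with AAV-SIRT3.

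The spread of Dpysl2 among libraries was above its counting error. Dpysl2 had a coefficient of variation of 8.52% in intact, 9.53% with AAV-GFP and 11.8% with AAV-SIRT3, against a counting error of 0.972%, 0.942% and 0.828%. For Dpysl5 the values were 3.35% against 1.60% in intact, 6.94% against 1.67% with AAV-GFP and 5.13% against 1.62% with AAV-SIRT3. For Dpysl4 they were 9.83% against 2.34%, 8.92% against 2.44% and 4.75% against 2.44%, in the same order. The residual SD of Dpysl2, 0.147 on the log2 scale, exceeded that of 50.2% of tested genes. Dpysl3 and Dpysl5 were steadier, with residual SDs of 0.07 and 0.08, exceeding those of 12.8% and 15.7%. Across the 18 libraries Dpysl2 correlated weakly with Dpysl3 (Pearson r = -0.005) and Dpysl5 (0.13) and moderately with Crmp1 (0.52), while Dpysl3 correlated with Dpysl5 (0.66) and Dpysl4 (0.64). After removal of the group means, the last pair stood at 0.59 and Dpysl2 with Crmp1 at 0.50. These are descriptions over libraries that share a normalisation.

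The genes whose pattern over the 18 libraries was most like that of Dpysl2, among 15244 with a mean of at least 50, were Ube2z (Pearson r = 0.94), Atp6v0e2 (0.93), Ap1s1 (0.92), Pdxp (0.92) and Tmem222 (0.92). Ube2z encodes a ubiquitin-conjugating enzyme, Atp6v0e2 a subunit of the vacuolar proton pump, Ap1s1 a subunit of the AP-1 clathrin adaptor and Pdxp a phosphatase. With the group means removed r was 0.85, 0.82, 0.80, 0.76 and 0.83. These genes were picked by r over the same 18 libraries, so a high r within groups is partly built in. No member of the family was among these 5, and none was among the nearest 2 of another member. Those were Megf11 and Tspoap1 for Crmp1 (0.86 each), Slc6a15 and Klhdc10 for Dpysl3 (0.88 and 0.87), Gprasp2 and Sema4a for Dpysl4 (0.83 and 0.79), and Cyp4x1 and Ncam1 for Dpysl5 (0.88 and 0.84).

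The genes around the family were described from 7 lists of 74 genes in all, covering semaphorin ligands and receptors, their signal relay, CRMP kinases with a phosphatase, binding partners, tubulins, microtubule-associated proteins and the homologous enzyme with its pathway. All 74 were tested. In AAV-SIRT3 against intact 28 passed (37.8%), 16 higher and 12 lower, where 21.7% of all genes tested passed, 11.3% higher and 10.3% lower. That background includes many genes with few reads. When only genes with a mean of at least 50 were fitted, 28 list genes passed, against 4177 of 15247 genes. The lists' median log2 difference was -0.004 and that of all genes -0.005. In AAV-SIRT3 against AAV-GFP 0 of 74 passed by limma, edgeR called 0 and DESeq2 called 2, against 22, 24 and 304 of all 19443 genes tested. At an unadjusted p under 0.05 there were 15, against 2964 of all genes. Without AAV-GFP replicate 2 limma called 6, against 861 of all genes.

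Several semaphorin receptors were lower in AAV-SIRT3 than in intact tissue. Of 13 ligands and receptors 5 fell and 0 rose: Nrp1 and Nrp2, the neuropilins that bind class 3 semaphorins, by 0.44 and 0.34, and the plexins Plxna4, Plxna2 and Plxna1, which pass the signal into the cell, by 0.28, 0.20 and 0.18 on the log2 scale. Nrp1 stood at 1380 ± 115 normalised reads in intact and 1017 ± 67.2 in AAV-SIRT3 libraries (limma adjusted p = 0.000839, SD with n = 6 each). The ligand Sema3a stood at -0.32 (limma adjusted p = 0.111) and L1cam, a co-receptor, at -0.04 (limma adjusted p = 0.623). The median over the list was -0.19. Plxna1, Plxna2 and Plxna4 have coding transcripts of 9034, 11040 and 12877 bases, and with the length trend removed they stood at -0.02, -0.01 and -0.06 (limma adjusted p from 0.205 to 0.936). Nrp1 and Nrp2 stayed past the threshold at -0.39 and -0.22 (limma adjusted p = 0.000861 and 0.00418). Neuropilins are also made by blood vessels, and of 5 endothelial markers 2 were lower and 0 higher, with a median of -0.30 and summed levels from 6624 to 8652 normalised reads in intact and from 5555 to 8378 in AAV-SIRT3 libraries. The part of endothelium in the neuropilin values was not tested.

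The relay list held calls in both directions and the enzyme list higher ones. Of 12 relay genes 2 rose, Chn1 (0.18) and Fes (0.30), a tyrosine kinase, and 2 fell, Farp2 (-0.38), a Rac exchange factor bound to plexin A, and Mical3 (-0.11). Fes is known from myeloid cells too, and 3 of 6 microglia markers were higher and 0 lower, with summed levels from 12202 to 14175 normalised reads in intact and from 13581 to 16000 in AAV-SIRT3 libraries, a change whose part in Fes was not tested. Of 12 genes for kinases and phosphatases that act on CRMPs and their activators 5 rose and 0 fell. They were Cdk5 (0.20), which phosphorylates CRMP2, its activators Cdk5r1 (0.28) and Cdk5r2 (0.30), and the catalytic subunits of protein phosphatase 2A, Ppp2ca (0.15) and Ppp2cb (0.21). Normalised reads of Cdk5 were 5200 ± 102 in intact and 5971 ± 320 in AAV-SIRT3 libraries (limma adjusted p = 0.00436, SD with n = 6 each). Gsk3a stood at 0.09 and Gsk3b at -0.11 (limma adjusted p = 0.131 and 0.16). The list's median was 0.09. All 5 passed with the length trend removed, while with the thalamic marker score as a covariate Cdk5 and Cdk5r2 passed and Cdk5r1 stood at 0.05 (limma adjusted p = 0.509).

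Among partners and microtubule genes, 4 tubulins and all 4 stathmins listed were higher, and Dcx, Map1b and Map2 were lower. Of 12 binding partners and cargo 2 fell, Cacna1b (-0.21), the N-type calcium channel pore, and Cyfip1 (-0.19), an actin regulator, and 0 rose, while the kinesin genes Kif5a and Kif5c stood at -0.01 and -0.03. Of 9 tubulins 4 rose, Tubb3 (0.16), Tubb2a (0.13), Tuba1a (0.12) and Tubb4b (0.12), and 0 fell. Tubulin genes, like Ppp2ca and Ppp2cb, are close copies whose reads the counting could split, so their single values are uncertain. Of 13 microtubule-associated genes 5 rose and 3 fell. The rises were Stmn1 (0.32), Stmn4 (0.28), Stmn3 (0.27) and Stmn2 (0.18), which sequester tubulin, and Map1lc3a (0.31), known from autophagy. The falls were Dcx (-0.38), Map1b (-0.29) and Map2 (-0.23), and Mapt, encoding tau, stood at 0.004 (limma adjusted p = 0.948). Dcx also marks immature neurons, a list of 5 genes with 1 lower, Dcx itself. Their summed levels ran from 3530 to 3955 normalised reads in intact and from 3009 to 3413 in AAV-SIRT3 libraries. These sums did not overlap, as for 9.33% of single genes tested, but the mean log2 scores of the 5 genes did. The scores ran from 8.09 to 8.60 in intact and from 8.20 to 8.33 in AAV-SIRT3 libraries. Stmn1 had 20135 ± 741 normalised reads in intact and 25160 ± 1768 in AAV-SIRT3 libraries (limma adjusted p = 0.000532, SD with n = 6 each).

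Transcript length moved with these directions, and its part in them was not otherwise tested. With the length trend removed, 20 of the 28 called genes stayed past the threshold, all 16 that rose and 4 of the 12 that fell, and Mical3 changed sign to 0.05. The calls of Map1b (-0.09), Map2 (-0.12), Cacna1b (-0.04) and Cyfip1 (-0.08) ended there (limma adjusted p from 0.0832 to 0.43), as did those of the 3 plexins. That step also moved the calls over all genes from 2206 higher and 2008 lower to 3219 higher and 1004 lower. With the thalamic score as covariate 15 of the 28 stayed, 6 higher and 9 lower. The tubulin list then held 0 calls with a median of 0.11, near the 0.12 without the covariate, and Tubb3 stayed at 0.16. Mical3, Farp2 and Map2 also lost their calls at little changed values of -0.11, -0.35 and -0.20, whereas Cdk5r1 moved to 0.05. Dpysl2, with a coding transcript longer than 77.3% of tested genes, stood at 0.55 with the length trend removed (limma adjusted p = 0.000209).

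**Figure D5:**
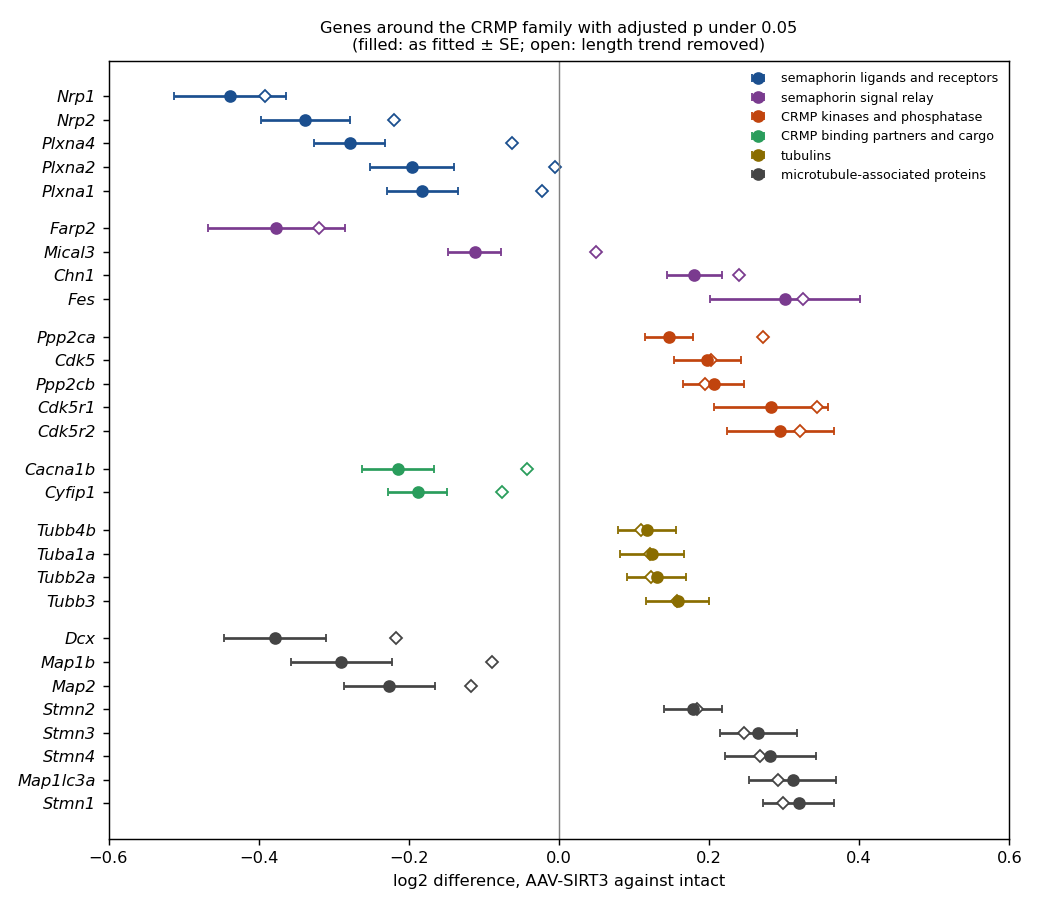
Log2 differences in AAV-SIRT3 against intact (horizontal axis) for the 28 genes around the CRMP family that passed, grouped by list, with filled points and SE bars as fitted and open diamonds with the length trend removed. Plxna1, Plxna2 and Plxna4 move to near 0, while Nrp1, the Cdk5 genes and the stathmins stay away from it.

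In AAV-GFP against intact 7 of the 74 passed (9.46%), 2 higher (2.7%) and 5 lower (6.76%), where 0.823% of all genes tested were higher and 1.02% lower. Nrp2 fell by 0.27, Plxna4 by 0.26, Plxna1 by 0.22, Cacna1b by 0.19 and Dcx by 0.28, while Fes rose by 0.44 and Ppp2cb by 0.17 (limma adjusted p from 0.0101 to 0.0426). The lists' median was -0.004 and that of all genes 0.001. With the thalamic score as covariate 0 of these 7 passed, while most values stayed near their size, with Plxna1 at -0.23, Plxna4 at -0.25, Cacna1b at -0.24, Dcx at -0.30 and Fes at 0.41, and Nrp2 and Ppp2cb moved to -0.19 and 0.11. With the length trend removed Nrp2 and Fes passed. DESeq2 called 12 of the 74, against 1000 of all genes tested. When only genes with a mean of at least 50 were fitted, limma called 8 list genes, against 451 of 15247 genes. Limma called 11 of the 74 when AAV-GFP replicate 1 was left out, against 686 of all genes. It called 1 when intact replicate 3 was left out, against 129. The homologous enzyme gene Dpys was low, at 21.4 ± 13.0 normalised reads in intact and 13.4 ± 5.68 with AAV-SIRT3 (SD, n = 6 each), and none of Dpys, Dpyd and Upb1, genes of pyrimidine breakdown, passed in any of the 3 comparisons.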

How the data were processed

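The authors deposited a table of gene signal values for 18 libraries, which per its name are HTSeq counts normalised by DESeq2. The submitters' processing notes name HISAT2 2.1.0, DESeq2 1.34.0 and mm10, and the annotation and strand setting are not given in the sources used here. Each column was a set of whole reads divided by 1 size factor, and multiplying back gave whole numbers (within 0.01 reads) for 100% of values above 0. In intact replicate 4 and AAV-SIRT3 replicate 4 the factor is near 1, which is weaker proof.

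Groups came from the titles. Values were analysed as log2(value + 1) with limma 3.58.1 in R 4.3.3, fitting all 3 groups together, with trended prior variances and Benjamini-Hochberg adjustment over 19443 genes at 0.05. Fold changes on this scale understate those of low genes. The members and lists were chosen with earlier results of these data known, and 1 gene of the lists is not reported here. Named genes are the 5 members, genes of the pathway and marker lists that passed or are given with values only, and the 5 genes (2 for the other members) with the highest Pearson correlation among those with a mean of at least 50. Evc and Gm42764 are named for their overlap. Alternatives were TMM and quantile normalisation, pseudocounts of 0.5 and 10, other filters, edgeR 4.0.16 and DESeq2 1.42.0 on recovered reads, fits of 2 groups, a replicate block, marker covariates, leaving out each library and, added after seeing the data, removal of a length trend. On simulated counts for AAV-SIRT3 against intact limma called 63.6% of genes planted at a log2 of 0.5, with 4 false calls among 19443 genes. These counts were drawn separately for each gene, with no length trend and no shift in tissue content. The rates therefore need not hold for the real libraries. Lengths came from GENCODE M21, and promoter and protein sequences were not used here.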

Additional observations from a re-analysis of the deposited data

Results flagged for a closer look

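Of 15 groups of 6 values (5 genes in 3 groups), 1 held a library set apart from the rest of its group by Dixon's criterion, where 0.75 would be by chance. Dpysl5 in AAV-GFP replicate 6 was at 4055 normalised reads, and the next highest AAV-GFP library was at 3588. Without this library the log2 difference of Dpysl5 in AAV-GFP against intact was -0.16 (limma adjusted p = 0.0525) in place of -0.12 (limma adjusted p = 0.148). Chance sets apart about 1 in 20 such groups.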

How the results depend on the processing

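Dpysl2 kept its direction in all 26 alternatives of each comparison with intact. Its call held in AAV-SIRT3 against intact, where leaving out each library gave log2 differences from 0.43 to 0.52. The direction of Dpysl2 in AAV-SIRT3 against AAV-GFP was set by its choice and is not counted here. The smaller differences of its paralogs changed sign in places. In AAV-SIRT3 against intact Crmp1 turned to -0.052 with the thalamic score, Dpysl3 to 0.0395 with the length trend removed, and Dpysl5 to 0.00597 with the oligodendrocyte score and 0.0653 with the length trend removed, with -0.0367 to 0.00284 over left-out libraries. In AAV-GFP against intact Crmp1 turned to -0.00373 with TMM, -0.00451 with edgeR and -0.108 with the thalamic score, with -0.0363 to 0.0291 over left-out libraries. Members called in that comparison went from 0 to 1 with DESeq2 and lay between 0 and 1 over left-out libraries. The 1 was Dpysl3 without intact replicate 2 or AAV-GFP replicate 1, where 462 and 686 of all genes were called. Pathway genes called in AAV-GFP against intact went from 7 to 4 with all genes above 0, 4 with the 2 groups alone, 12 with DESeq2, 0 with the thalamic score and 3 with the length trend removed, and from 1 to 11 over left-out libraries. In AAV-SIRT3 against intact they went from 28 to 15 with the thalamic score, some at little changed values (Tubb3 0.16, Mical3 -0.11) and others not (Cdk5r1 0.05), and in AAV-SIRT3 against AAV-GFP from 0 to 2 with DESeq2, 2 with the length trend removed and 0 to 6 over left-out libraries. The cause of these shifts was not tested. Replicate numbers did not pair the libraries: over 18 same-number pairs the correlation of deviations ran from -0.174 to 0.298, with 3 over 0.1, and a library correlated best with its own number in 1 case. With the replicate number as a block Dpysl2 in AAV-SIRT3 against intact stayed at 0.47 (limma adjusted p = 0.000558), and the block changed no count of members or pathway genes called, while calls over all genes went from 22 to 13 in AAV-SIRT3 against AAV-GFP, 4214 to 3923 in AAV-SIRT3 against intact and 358 to 372 in AAV-GFP against intact. Counting error, as a mean over the 6 libraries of a group, was at most 2.44% for any member.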
